A study of Apis mellifera with 138 samples.

Results

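MicroRNA miR-305 was inhibited in colony R42 of the honey bee Apis mellifera, and the abdominal fat body of the treated workers was compared with that of workers fed a control oligonucleotide. The libraries are those of R42 fat body in which reads on bee virus genomes made up at most 0.5% of all counts, and 21 of the 138 libraries of the series met this rule. They comprised 11 bees fed antag-305, an antagomir against miR-305-5p, and 10 bees fed antag-missense, an antagomir of missense sequence. Antag-missense bee 15 was left out for its viral share.

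All bees were workers of a colony whose queen had been inseminated with the semen of a single drone. They were paint-marked when 1 day old, returned to their colony, fed 1000 pmol of antagomir in 30% sucrose at 3 days of age, and then caged singly for 48 h, so that they were 5 days old at collection. An antagomir is a modified antisense RNA oligonucleotide that binds its miRNA and blocks it. Each library holds the RNA of 1 bee, with the fat body left attached to the abdominal cuticle after removal of the gut and the sting apparatus. R42 was 1 colony and 1 trial, and colony and trial cannot be told apart. The labels do not say that equal bee numbers in both treatments mark pairs.

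The insect fat body stores lipid, glycogen and protein and secretes most proteins of the hemolymph, in the roles that liver and adipose tissue share in vertebrates. In honey bee workers it makes vitellogenin, an egg yolk precursor that is abundant in nurses and low in foragers, and it answers to insulin-like peptides, juvenile hormone and ecdysteroids. A miRNA pairs with sites in target mRNAs and lowers their stability or translation, so that targets of an inhibited miRNA can rise. In Drosophila, miR-305 acts in the gut on the Notch and insulin pathways. Notch is a receptor for the membrane ligand Delta, and the bHLH repressors hairy and the Enhancer of split proteins act with it or below it.

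Reads counted on bee genes ranged from 10174460 to 24779896 per library in antag-305 bees and from 6208010 to 17939677 in antag-missense bees. The features are the whole spans of 12332 genes, from start to end with introns, and for all 12332 the length given equals the span. Levels are given as CPM, edgeR's measure of a gene's counts relative to the TMM-scaled total of its library. A gene was tested where it exceeded 1 CPM, for this rule without TMM scaling, in at least 10 libraries. It was called where edgeR's quasi-likelihood test gave an FDR, its P adjusted by Benjamini and Hochberg, under 0.05. Log2 fold changes are antag-305 relative to antag-missense.

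Fat body markers were present in every library. The summed level of 7 genes for vitellogenin, hexamerins, transferrin and a lipophorin-like protein ranged from 7620 to 16791 CPM in antag-305 bees and from 4740 to 19120 CPM in antag-missense bees, against 364 to 838 CPM in the brains of the same bees. A4, the apolipophorin-III-like protein, and Hex70a, an amino acid storage protein, were the most abundant of them, and Hex70c had a mean of 0.525 CPM. Genes of other abdominal cells were read as well. The 7 troponin genes of muscle summed to 1345 to 4708 CPM in antag-305 bees and 1719 to 4297 CPM in antag-missense bees, and none of the 7 was called. Melt, the venom peptide melittin, ranged from 0.871 to 10124 CPM and from 0.765 to 18844 CPM in these groups, while Apamin and Pla2 of the venom gland were at 0 in all 21 libraries.

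Antag-missense bees 14, 18 and 23 stood apart from the other 18 bees. On the first principal component, which held 38.7% of the variance, they lay between 72.3 and 106, and the other 18 between -38.4 and 9.08. The second component held 30.9% and did not set them apart, as they lay at 7.78, 18.2 and -24.3. Its extremes were antag-305 bees 14 and 17, at 79.5 and -58.4, so the other 18 varied widely as well. The libraries of bees 14, 18 and 23 of antag-missense held 6208010.0 to 11043753.0 counts and had 10955 to 11153 genes with a count. The other 18 held 10174460.0 to 24779896.0 counts and had 10190 to 10721 such genes. Most calls were not made when these 3 bees were left out, so results below are given with and without them. Leaving them out also cuts the antag-missense group from 10 bees to 7. A lost call is therefore not by itself a measure of their part in it. The fits without the 3 bees were chosen after the data had been seen.

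The 3 libraries had high levels of genes with long spans. Over 517 genes that span at least 20 kb and had a median under 0.03 CPM per kb in the other 18 libraries, the median level of the 3 libraries was 0.149, 0.381 and 0.452 CPM per kb. In the other 7 antag-missense libraries it was 0.0107 to 0.0261, and in the 11 antag-305 libraries 0.00624 to 0.0232. These genes were chosen by their low level in the 18, so the height of the gap is a description.

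The levels per kb in the 3 libraries lay in close ranges for genes of very different brain expression. For 114 of these genes with a median under 0.03 CPM per kb in R42 brain, the 3 libraries had medians of 0.111 to 0.369 CPM per kb. For 165 genes between 0.03 and 0.3 CPM per kb in brain they had 0.153 to 0.459, and for 238 genes at or above 0.3 they had 0.156 to 0.481. The corresponding brain medians were 0.0088, 0.10 and 0.971 CPM per kb.

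**Figure D1:**
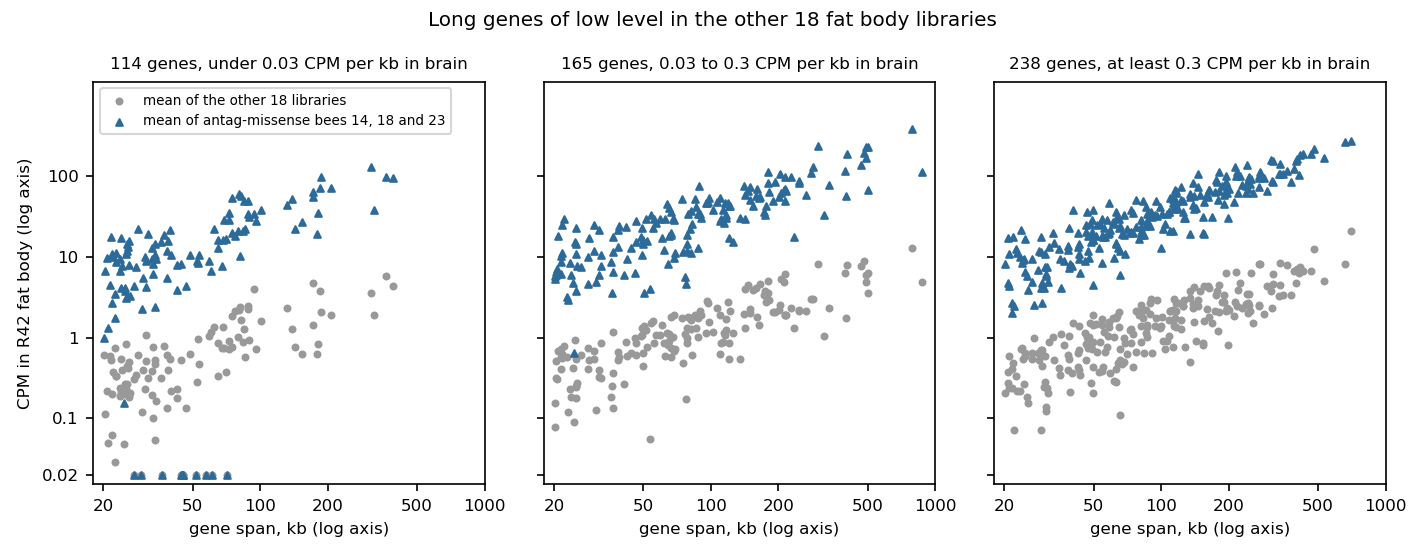
Level in CPM against gene span in kb, on log axes, for 517 genes of at least 20 kb with a median under 0.03 CPM per kb in 18 libraries, in 3 panels by the gene's level in R42 brain. Triangles are the mean of antag-missense bees 14, 18 and 23, gray points the mean of the other 18 libraries, and values under 0.02 CPM are drawn at 0.02. In each panel the level grows with span and most triangles lie well above the gray points, also among the 114 genes low in brain, of which some are near 0 in both sets.

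Single genes show the same. Nrx-1, the presynaptic adhesion protein neurexin 1, spans 338 kb and lay at 0.0935, 0.267 and 0.335 CPM per kb in the 3 libraries, close to its brain median of 0.296. Brp, the active zone protein Bruchpilot, lay at 0.324, 0.70 and 0.782 CPM per kb in them against 21.8 in brain. Or2, the shared coreceptor of insect odorant receptors, lay at 0.176, 0.513 and 0.741 CPM per kb, although its median in brain was 0.00722. These genes reached a like level per kb in the 3 fat body libraries while their brain levels differed by orders of magnitude.

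The neuron and glia markers moved with these libraries. Their 7 members, all tested, are Nrx-1, NLG-3, NLG-4, NLG-5, brp, Syt1 and Para, and their sum was 263 to 645 CPM in the 3 bees, 49.3 to 76.2 CPM in the other 7 antag-missense bees and 23.5 to 83.2 CPM in antag-305 bees. None of the 7 was at 0 in all libraries. Of these, Nrx-1, brp and the 3 neuroligins were called lower. Syt1, which encodes the abundant vesicle protein synaptotagmin 1, had medians of 31.0 CPM in antag-305 and 20.8 CPM in antag-missense bees, and 17.7 to 38.9 CPM in the 3 bees, and was not called (log2 fold change 0.22). The source of the counts on long spans, and the part of these libraries in each call, was not tested beyond the fits without them. In libraries of whole tissue, fewer cells of a type and less RNA per cell cannot be told apart.

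**Figure D2:**
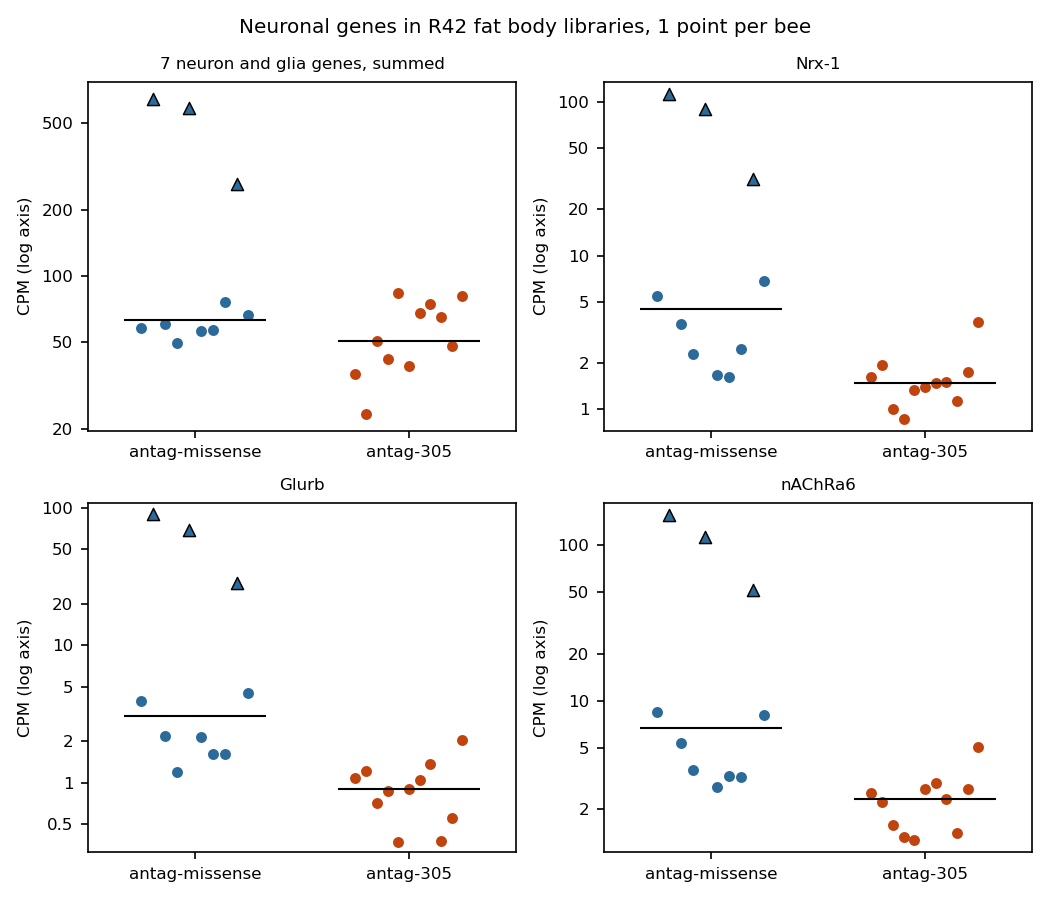
CPM on log axes in R42 fat body, 1 point per bee, for the sum of 7 neuron and glia genes and for Nrx-1, Glurb and nAChRa6, with the median of each group as a line. Triangles are antag-missense bees 14, 18 and 23, which lie above every other bee in all 4 panels, while the other 7 antag-missense bees overlap the antag-305 bees.

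Libraries of the other colonies spread over the same range. With all 3 colonies on 1 scale, the median level over the 517 genes was at most 0.0267 CPM per kb in the 18 R42 libraries and at least 0.149 in the 3. In R2, 1 of 9 antag-missense and 1 of 12 antag-305 libraries reached the level of the 3 bees, and in R3 1 of 11 and 3 of 12 did. Above the highest of the 18, but not all as high as the 3, were 4 of 9 and 6 of 12 libraries in R2 and 4 of 11 and 8 of 12 in R3. The highest of all, at 0.627 CPM per kb, was of an antag-305 bee of R2.

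Of 8623 genes tested in R42, 679 were called (7.87%), 100 of them higher in antag-305 bees (1.16%) and 579 lower (6.71%). Without the 3 bees, edgeR's quasi-likelihood test called 0 genes higher and 1 lower among 8668 (0.0115%), and at an unadjusted P under 0.05 there were 230 and 493. The gene that remained was LOC410370. With the log2 level of the neuron and glia markers as a covariate, 1 gene was called higher (LOC107966102, FDR = 0.0213) and 1 lower (LOC410370, FDR = 0.0115), each 0.0116% of genes tested. That level came from the same libraries, and 5 of its 7 genes were themselves called lower. It was 263 to 645 CPM in the 3 bees, and at most 83.2 CPM in antag-305 and 76.2 CPM in the other antag-missense bees. This fit is therefore not separate from leaving the 3 bees out. Over all genes tested the median log2 fold change was 0.08 with 21 libraries and 0.02 without the 3.

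The 579 genes called lower were long. Their median span was 81.1 kb, against 4.11 kb over all genes tested, and 430 of them (74.3%) spanned at least 20 kb, as did 15.5% of the genes tested. In 486 of the 579 (83.9%) the 3 highest libraries were those of bees 14, 18 and 23, which was so for 11.3% of all genes tested. Their median log2 fold change was -2.12 with 21 libraries and -0.47 without the 3. In the fit without them, 563 of 579 kept their sign and 292 had an unadjusted P under 0.05 by edgeR. Of all genes tested in that fit, 5.69% were lower at such a P. It reuses 18 of the 21 libraries by which the 579 were chosen, so these counts are not independent of that choice.

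The 100 genes called higher were short, with a median span of 3.05 kb, and 2 of them spanned at least 20 kb. Their median log2 fold change was 0.60 with 21 libraries and 0.43 without the 3, and all 100 kept their sign. In the fit without the 3 bees, 98 of the 100 had an unadjusted P under 0.05 by edgeR and 0 were called. Of all genes tested in that fit, 2.65% were higher at such a P. The fit reuses 18 of the 21 libraries by which the 100 were chosen. Their signs and P in it are therefore not independent of that choice. Bees 14, 18 and 23 were the 3 lowest libraries in 24 of the 100, and in 4.99% of all genes tested.

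**Figure D3:**
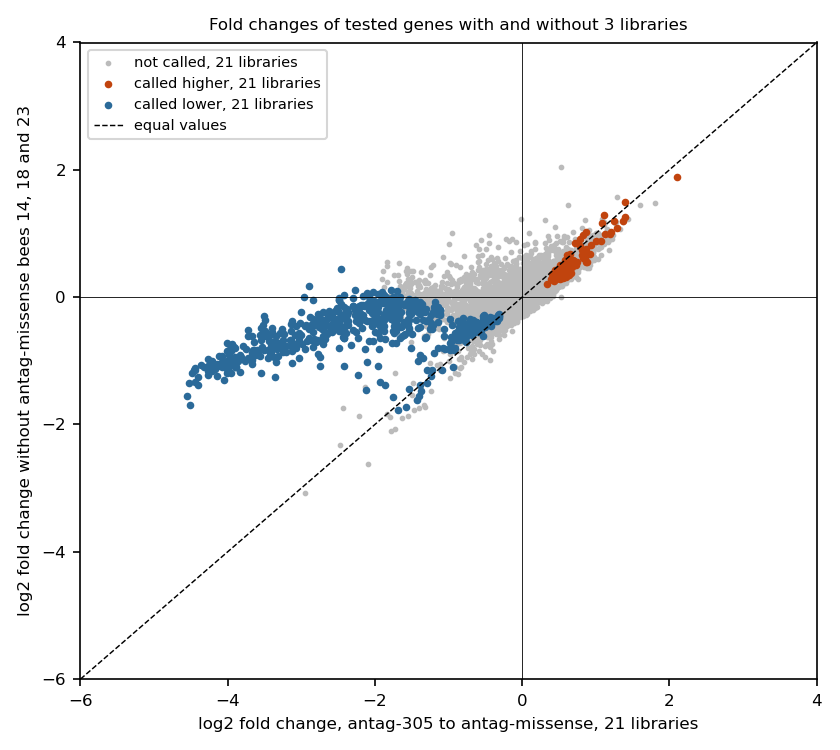
Log2 fold change (antag-305 to antag-missense) of each tested gene with 21 libraries on the x axis and without antag-missense bees 14, 18 and 23 on the y axis. Blue points, called lower, mostly lie far above the dashed line of equal values (median -2.12 against -0.47), and red points, called higher, lie near it (median 0.60 against 0.43).

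LOC410370 was the only gene called with and without the 3 bees. It is a protein-coding gene of 2883 bases on chromosome 12, at 8215684 to 8218566 of the HAv3.1 genome, and the annotation used here gives no product. Its level had a lowest, median and highest value of 6.95, 15.2 and 24.6 CPM in antag-305 bees and 18.9, 42.3 and 66.2 CPM in antag-missense bees. All 11 antag-305 bees lay below the antag-missense median, and the groups overlapped between 18.9 and 24.6 CPM. The log2 fold change was -1.43 (SE 0.25, FDR = 0.00666 by edgeR), and -1.62 without the 3 bees (SE 0.25, FDR = 0.0245), which lay at 18.9 to 46.8 CPM, within the range of the other antag-missense bees or below it. It was almost absent from R42 brain, with medians of 0.448 and 0.382 CPM.

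A few other short genes were lower whether or not the 3 bees were counted, though their calls needed all 21 libraries. They were named for their P without the 3 bees, a choice made after their values had been seen, and none has a product name here. LOC102654520 had values of 5.44, 11.6 and 15.1 CPM (lowest, median and highest) in antag-305 bees and 6.38, 29.3 and 57.5 CPM in antag-missense bees. Its high values were spread over most antag-missense bees, and only 2 of them overlapped the antag-305 range. The log2 fold change was -1.40 (FDR = 0.00666), and -1.56 without the 3 bees (FDR = 0.101).

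LOC725217, the most abundant of these, ranged from 25.9 over 54.7 to 102 CPM in antag-305 bees and from 26 over 178 to 324 CPM in antag-missense bees. Its log2 fold change was -1.57 (FDR = 0.00864), and -1.73 without the 3 bees (FDR = 0.234). LOC726393 gave -1.69 (FDR = 0.00691) and -1.77 (FDR = 0.20), and LOC102654175 gave -1.34 (FDR = 0.00666) and -0.96 (FDR = 0.234). All 11 antag-305 bees lay below the antag-missense median for each of the 3.

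Among the genes called higher, LOC107965825 was 1 of only 2 whose groups did not overlap (0.0232% of genes tested). It lies on chromosome 10 at 11875014 to 11876360, plus strand, and its start overlaps the end of LOC551724 on the same strand, so reads there may be shared. The lowest, median and highest level was 8.54, 13.6 and 23.7 CPM in antag-305 bees and 2.81, 6.19 and 7.91 CPM in antag-missense bees. The log2 fold change was 1.37 (SE 0.21, FDR = 0.00666 by edgeR), and 1.2 without the 3 bees (SE 0.22, FDR = 0.101). Its neighbor LOC551724 had 14.6, 31.1 and 47.8 CPM against 9.13, 15 and 19.2 CPM, a log2 fold change of 1.01 (FDR = 0.00666), and 0.88 without the 3 bees (FDR = 0.268).

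The other gene without overlap was LOC100577180 on chromosome 14, with 7.65, 8.86 and 12.3 CPM in antag-305 bees and 2.21, 5.52 and 7.37 CPM in antag-missense bees. Bees 14, 18 and 23 were its 3 lowest libraries, at 2.21 to 2.81 CPM, and the fold change moved from 0.86 (FDR = 0.01) to 0.56 (FDR = 0.234) without them. No gene was lower without overlap. Leaving out the 3 bees, 3 genes were higher without overlap (0.0346%) and 0 lower, and the added gene was LOC107966117, with 6.53 to 14.6 CPM in antag-305 bees and 2.09 to 5.27 CPM in the other 7 antag-missense bees.

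The long noncoding RNA LOC107966102 on chromosome 2 was at 28.7, 42 and 115 CPM in antag-305 bees and 16.1, 20.5 and 29.2 CPM in antag-missense bees, so that the groups overlapped at a single antag-missense bee. Bees 14, 18 and 23 lay at 18.8 to 25 CPM, inside their group. The log2 fold change was 1.24 (SE 0.20, FDR = 0.00666 by edgeR), and 1.19 without the 3 bees (SE 0.24, FDR = 0.12). In R42 brain its medians were 419 against 284 CPM, with a log2 fold change of 0.74. It was not called there (unadjusted P of 9.95e-05 by edgeR), and both tissues come from the same bees.

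LOC413590 had 80.6, 165 and 273 CPM in antag-305 bees and 38, 55.5 and 122 CPM in antag-missense bees, with a log2 fold change of 1.29 (FDR = 0.00666) and 1.09 without the 3 bees (FDR = 0.234). LOC724626 showed the largest increase, 2.11 (FDR = 0.00824), which rested on wide values of 1.76 to 58.7 CPM in antag-305 bees against 1.29 to 5.40 CPM, and was 1.89 without the 3 bees (FDR = 0.277). The remaining genes among the 15 of smallest P (LOC412192, LOC412627, LOC100576433, LOC409124, LOC726066, LOC409064 and LOC552185) had log2 fold changes of 0.41 to 1.21, and 0.29 to 1.02 without the 3 bees, with no product name here.

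**Figure D4:**
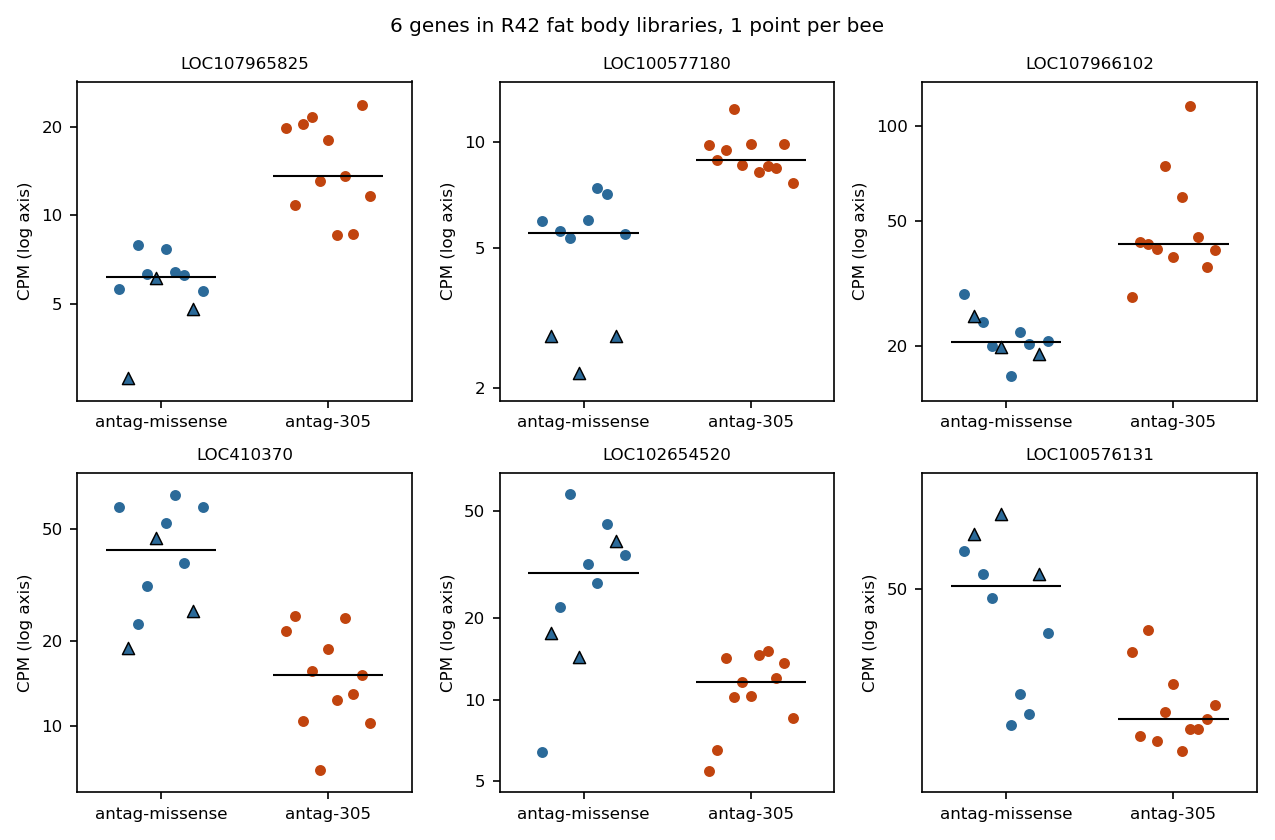
CPM on log axes in R42 fat body, 1 point per bee with the group median as a line, for 3 genes called higher (top) and 3 called lower (bottom). Triangles are antag-missense bees 14, 18 and 23. They sit among their group for LOC107966102, LOC410370 and LOC102654520, are the lowest for LOC100577180, and are 3 of the 4 highest for LOC100576131.

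Chaperones were among the genes called higher. LOC411071, a dnaJ protein homolog 1 that as an Hsp40 cochaperone presents clients to Hsp70, was at 325, 466 and 640 CPM in antag-305 bees and 246, 335 and 418 CPM in antag-missense bees. Its log2 fold change was 0.54 (FDR = 0.0126), and 0.45 without the 3 bees (FDR = 0.326). LOC411700, heat shock protein 83 and a cytosolic Hsp90 chaperone, was at 493, 863 and 1178 CPM against 317, 542 and 872 CPM. Its log2 fold change was 0.72 (FDR = 0.0232), and 0.84 without the 3 bees (FDR = 0.268). These were the 2 called members of 24 chaperone and ER stress genes tested, against 1.16% of all genes called higher, and the list's median log2 fold change was 0.08, as over all genes tested. With the 3 bees left out 0 of 24 were called by edgeR, with 2 higher and 1 lower at an unadjusted P under 0.05, and the median was -0.02. The inducible LOC410620 of the Hsp70 family had 1.05 and was not called (FDR = 0.117), and 0.98 without the 3 bees. Another gene, described as heat shock protein 90, was more abundant than LOC411700, with medians of 2204 CPM in antag-305 and 1748 CPM in antag-missense bees. It had 0.61 and was not called (FDR = 0.175), and 0.65 without the 3 bees (FDR = 0.60).

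ILP-2, an insulin-like peptide, was called higher, at 13, 22.1 and 37.5 CPM in antag-305 bees and 7.72, 15.3 and 21.2 CPM in antag-missense bees. Its log2 fold change was 0.69 (FDR = 0.0303), and 0.58 without the 3 bees (FDR = 0.366). LOC412524, described as the calcium release-activated calcium channel protein 1, through which store-operated calcium enters cells, was called at 0.52 (FDR = 0.0287), and 0.39 without them (FDR = 0.496). Y-e3, of the yellow family of cuticle pigment proteins, was called at 1.39 (FDR = 0.0295), and 1.50 without them (FDR = 0.318). The summed level of its list of 26 cuticle and epidermis genes ranged from 897 to 5432 CPM in antag-305 bees and from 559 to 3591 CPM in antag-missense bees, and its part in the change of Y-e3 was not tested.

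Receptors, ion channels and proteins of synapses were among the genes called lower. This list was drawn up after the calls had been seen and serves as a description. Of its 26 members tested, 16 were called lower and 0 higher, where 6.71% of all genes were called lower, and the median log2 fold change was -2.57 against 0.08 over all genes. In all 16 the 3 highest libraries were those of bees 14, 18 and 23. Without those bees 0 of 26 were called by edgeR, 11 were lower at an unadjusted P under 0.05, and the median was -0.48 against 0.02 over all genes.

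Glurb, a glutamate receptor of 257 kb, was at 0.374, 0.903 and 2.03 CPM in antag-305 bees, at 1.21 to 4.48 CPM in 7 antag-missense bees, and at 28.2 to 90.4 CPM in the 3. The log2 fold change was -4.40 (FDR = 0.00666), and -1.38 without the 3 bees (FDR = 0.238). For nAChRa6, the alpha6 subunit of the nicotinic acetylcholine receptor, the levels were 1.27, 2.32 and 5.03 CPM, then 2.80 to 8.42 CPM, and 51.6 to 155 CPM. Its log2 fold change was -3.89 (FDR = 0.00666), and -1.10 without them (FDR = 0.268). In both, the antag-305 bees overlapped the 7, and only the 3 lay far above.

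Nrx-1 and NLG-4, a partner of neurexin across the synapse, gave -4.00 and -4.45, and -1.12 and -1.34 without the 3 bees. The serotonin receptor 5-ht7 gave -4.05 and -1.3, the calcium channel subunit Cac -3.73 and -0.51, and the dopamine receptor Dop1 -2.10 and 0.07. The 15 genes of smallest P among those called lower included, beside Glurb, nAChRa6 and Nrx-1, the long noncoding RNAs LOC113219262, LOC113219153, LOC102654507 and LOC102654450, and LOC409692, LOC100577283, LOC410888, LOC411213, LOC726401 and LOC410662 with no product name here. In these 10 the 3 bees had levels 11.9 to 204 CPM, and log2 fold changes of -4.55 to -3.54 with 21 libraries moved to -1.70 to -1.08 without them. The median of LOC113219262 in antag-missense brain, 9.13 CPM, was below the 42.7 to 115 CPM of the 3 fat body libraries.

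Insulin and hormone response genes were mostly lower where they were called. Of 12 tested, 1 was called higher (ILP-2) and 4 lower, against 1.16% and 6.71% of all genes. The median log2 fold change was -0.81 against 0.08 over all genes, and -0.12 against 0.02 without the 3 bees. Those called lower were LOC413076, an ecdysone-induced protein 78C (-3.25, FDR = 0.00666), Br-c, the ecdysone-response factor Broad (-3.66, FDR = 0.00718), E75, an ecdysone-induced nuclear receptor (-1.39, FDR = 0.00791), and InR-2, an insulin receptor (-2.17, FDR = 0.0346). Without the 3 bees they gave -0.86, -0.84, -0.91 and -0.12, and 0 were called. LOC413076, Br-c and InR-2 span 113, 58.8 and 51.0 kb and belong to the 517 long genes described above. Their means were 46.9, 47.1 and 18.4 CPM in the 3 bees. In the other 18 libraries they were 2.18, 1.59 and 1.49 CPM.

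E75 was at 15.9, 22.9 and 53.3 CPM in antag-305 bees, at 16.9 to 79.5 CPM in 7 antag-missense bees with a median of 54.3, and at 96.5 to 129 CPM in the 3. All 11 antag-305 bees lay below the antag-missense median of 63.8 CPM, and the unadjusted P without the 3 bees was 0.00519 (FDR = 0.323). Kr-h1, a factor induced by juvenile hormone, was at 78.9, 200 and 270 CPM against 123, 163 and 216 CPM, a log2 fold change of 0.17 (FDR = 0.574), and 0.06 without the 3 bees. Usp, the partner of the ecdysone receptor, spans 54.5 kb and had -0.74 (FDR = 0.207), and 0.00 without them.

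In the Notch list, 5 members were tested, 0 were called higher and 1 lower, where 6.71% of all genes were called lower. LOC410351, the ligand Delta, was at 1.91, 2.75 and 4.45 CPM in antag-305 bees, at 2.10 to 5.12 CPM in 7 antag-missense bees, and at 15.3 to 38.6 CPM in the 3, which its log2 fold change followed from -2.02 (FDR = 0.0163) to -0.29 without them (FDR = 0.763). LOC410468, the repressor hairy, was at 7.07, 10.1 and 25.7 CPM in antag-305 bees and 6.16, 7.90 and 19.4 CPM in antag-missense bees. Its log2 fold change of 0.27 (SE 0.26, FDR = 0.514) was within the spread between bees, and was 0.53 without the 3 bees (SE 0.26, FDR = 0.609). LOC409822, an Enhancer of split m7 protein, had 0.26 (SE 0.49, FDR = 0.743), and 0.50 without them.

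The study lists 6 genes for the fat body over all colonies, a choice made on these libraries among others, so that their directions in R42 are not independent of it. Hairy and the Enhancer of split gene are 2 of them. A further 3, LOC552694 (PTP-ER, which in Drosophila restrains Ras signaling), LOC724561 (an E3 ubiquitin ligase DCST1) and LOC413667 (the mitotic cyclin B3), had log2 fold changes of 0.47, -0.33 and -0.16 in R42, with FDR values of 0.268, 0.397 and 0.39. Their values without the 3 bees were 0.26, -0.46 and -0.17.

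The last of the 6, LOC100576131, was the only one called. It was at 24.4, 28.1 and 41.7 CPM in antag-305 bees, 27.4 to 59.0 CPM in 7 antag-missense bees and 53.4 to 69.6 CPM in the 3. The log2 fold change was -0.67 (SE 0.16, FDR = 0.014 by edgeR), and -0.50 without the 3 bees (SE 0.16, FDR = 0.33).

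Products that define the fat body were not called. Of 9 storage and secreted protein genes tested 0 passed in either direction, with 1 higher and 0 lower at an unadjusted P under 0.05, and DESeq2, which called 2.18% of all genes higher and 9.5% lower, also called 0. Vg, vitellogenin, was at 30.5, 103 and 366 CPM in antag-305 bees and 4.51, 62.4 and 199 CPM in antag-missense bees, with a log2 fold change of 0.90 (SE 0.56, FDR = 0.321), and 0.46 without the 3 bees. Tsf1, the iron carrier transferrin, ranged from 11.9 to 953 CPM and from 3.83 to 219 CPM, with 1.80 (SE 0.78, FDR = 0.16), and 1.47 without them. A4 had 0.29 (FDR = 0.382) and Hex70a -0.43 (FDR = 0.519), and 0.13 and -0.78 without the 3 bees (FDR = 0.913 and 0.664).

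Metabolic and housekeeping lists held few calls. Among oxidative phosphorylation subunits 4 of 36 were called lower, against 6.71% of all genes, all of them among the 12 encoded in mitochondrial DNA, whose median log2 fold change was -0.80, and -0.37 without the 3 bees. The 24 nuclear subunits had 0 calls by edgeR, 3 lower at an unadjusted P under 0.05, and a median of 0.05, and -0.02 without the 3 bees. COX3, a core subunit of cytochrome c oxidase, was at 167, 203 and 306 CPM in antag-305 bees, 179 to 616 CPM in 7 antag-missense bees and 989 to 1853 CPM in the 3, and its log2 fold change of -1.50 (FDR = 0.0124) became -0.59 without them (FDR = 0.433). CYTB, the most abundant of the list, had 0.06 (FDR = 0.816), and -0.01 without the 3 bees.

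Single calls in other lists were also of long genes, and with lists of about 10 genes a single call is near the 6.71% of all genes called lower. LOC100578066, a glycogen-binding subunit of 74.9 kb that targets a phosphatase to glycogen, had -2.40 (FDR = 0.0101) as the only call among 9 sugar and glycogen genes, and -0.43 without the 3 bees. Dscam, a receptor of neurons and hemocytes, had -2.22 (FDR = 0.014) as the only call of 11 immune genes, and -0.41 without them. AChE-2, an acetylcholinesterase of 135 kb, had -2.78 (FDR = 0.00691) as the only call of 12 detoxification genes, and -0.69 without them. No call fell in lipid metabolism (8 tested), cytosolic ribosomal proteins (23), cell cycle (4), small RNA machinery (3), MAP kinase signaling (3) or protein turnover (13), where edgeR gave 3 genes higher and 5 lower at an unadjusted P under 0.05 and DESeq2 called 1 lower.

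Bees of R2 and R3 give values from other libraries. In their fat bodies, 44 libraries, 46 of 8985 genes were called higher (0.512%) and 41 lower (0.456%), or 0.968% together. Of the 579 genes lower in R42, 577 were tested there, 535 had a log2 fold change above 0, 0 were called lower and 3 were called higher, with a median of 0.66. Of the 100 genes higher in R42, 19 had a value above 0, 0 were called higher and 4 were called lower, with a median of -0.10. Over all genes tested in both, 50.3% had a value above 0. As given above, libraries at the level of the 3 bees on long spans occurred in both treatments of R2 and R3, and in R42 only in antag-missense.

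The other way round, 84 of the 87 genes called in R2 and R3 were tested in R42, where 23 had the same sign and 7 were called, 0 of them with the same sign. Over all genes tested in both, 43.1% had the same sign. Leaving out the 3 bees, 32 of 85 had the same sign, against 52.8% of all genes.

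The difference between the effect in R42 and the mean effect in R2 and R3 was tested directly. It passed in 1501 of 8844 genes (17%), 469 with a higher value in R42 (5.3%) and 1032 with a lower one (11.7%). Without R42 bees 14, 18 and 23 it passed in 39 of 8858 genes (0.44%), 22 higher (0.248%) and 17 lower (0.192%), all of which were among the 1501. Here and below, that fit left out no library of R2 or R3 for its level on long spans. At the level of the 3 bees were 1 of 9 antag-missense and 1 of 12 antag-305 libraries in R2. In R3 these were 1 of 11 and 3 of 12. Their part in the remaining differences was not tested.

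LOC107966102 had the smallest P for a colony difference. In R2 and R3 it was lower in antag-305 bees, with medians of 34.6 against 64.0 CPM and a log2 fold change of -0.77 (FDR = 6.36e-05 by edgeR), while in R42 it was higher. The difference of effects was 2.03 (FDR = 7.51e-09), and 1.97 without the 3 bees (FDR = 2.81e-07). LOC410370 turned the other way, with 27.4 against 16.1 CPM and 0.95 in R2 and R3 (FDR = 0.0236), so that the difference was -2.37 (FDR = 0.000126), and -2.55 without the 3 bees (FDR = 0.000161).

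For LOC107965825 the difference of effects was 1.67, for LOC413590 1.64, for LOC551724 1.42 and for LOC411071 0.84. Without the 3 bees they were 1.50, 1.45, 1.3 and 0.75, with edgeR FDR values of 0.000483, 0.00373, 0.00352 and 0.00373. All 4 had negative values in R2 and R3, of -0.29 to -0.42, and that of LOC411071 was called there (FDR = 0.0289).

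The effect of antag-305 was lower in R42 than in the other colonies for E75, GluCl, a glutamate-gated chloride channel, LOC410423 and LOC408792. Their differences were -2.39, -1.47, -1.02 and -0.51, and -1.94, -1.26, -1.06 and -0.57 without the 3 bees, with FDR values of 0.032, 0.0106, 0.00352 and 0.00267. E75 was called higher in antag-305 bees of R2 and R3 (1.04, FDR = 0.0405) and lower in R42. For the genes hairy, PTP-ER and Enhancer of split m7 the difference was -0.74, -0.24 and -1.44, with FDR values of 0.0639, 0.567 and 0.0567, and did not pass.

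**Figure D5:**
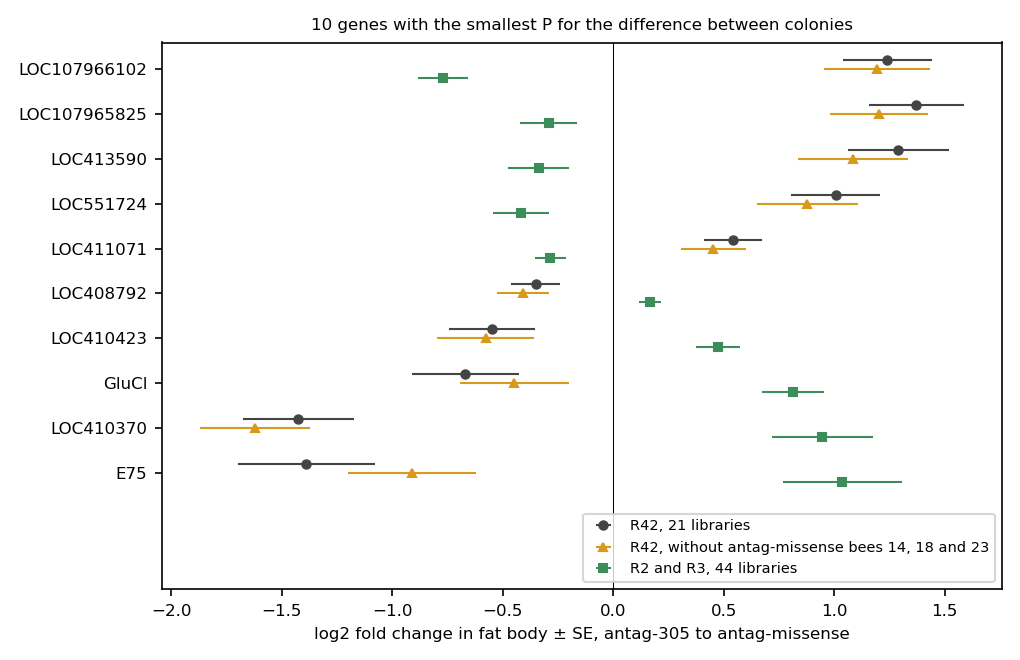
Log2 fold change in fat body with its SE, antag-305 to antag-missense, for the 10 genes of smallest P for the difference between R42 and the mean of R2 and R3. Circles are R42 with 21 libraries, triangles R42 without antag-missense bees 14, 18 and 23, and squares R2 and R3. For all 10 the R42 values and the R2 and R3 values lie on opposite sides of 0.

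In the brains of the same 21 bees, 6 of 9121 genes were called higher (0.0658%) and 3 lower (0.0329%), or 0.0987% together. The brain library of antag-305 bee 14 stood apart, with 179 CPM over the 7 troponin genes, against 12.6 to 43.2 CPM in the other brains. Over the fatty acid elongase LOC409638 and the cytochrome P450 Cyp4g11 it summed to 1556 CPM, against 40.1 to 75.7 CPM. That library was kept in the brain and tissue fits, and its part in them was not tested. Of the genes called lower in fat body, 545 were tested in brain, where 0 were called, 295 had the same sign and the median log2 fold change was -0.02. Of those called higher, 95 were tested, 0 were called and 73 had the same sign, with a median of 0.09. Of the 8122 genes tested in both tissues, 58.8% had the same sign, and the libraries come from the same bees. The difference between the tissues, tested with each bee as a block, passed in 0 of 8122 genes by edgeR, with 297 higher and 739 lower in fat body at an unadjusted P under 0.05, and in 0 genes without the 3 bees. LOC107965825 had a difference of 1.05 (P = 0.000131, FDR = 0.257) and LOC412524 of 0.56 (P = 0.000207, FDR = 0.257).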

How the data were processed

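RNA-seq of single bees was deposited by the authors as raw counts per gene and library. The authors aligned reads of stranded mRNA libraries to HAv3.1 with STAR 2.7.6a and counted them with featureCounts (Subread 2.0.0), and the deposited length of each feature equals its whole span. The strand setting is not given in the sources used here. Genes were named through RefSeq (Amel_HAv3.1) by position, which matched 12331 of 12332 spans.

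Bee counts were scaled by TMM and fitted with edgeR 4.0.16 (R 4.3.3), using its legacy quasi-likelihood test. The terms were treatment alone in R42, colony and treatment in R2 and R3, 6 group means for the difference between colonies, and each bee as a block for that between tissues. A gene was tested where it exceeded 1 CPM in 10 libraries of R42, 20 of R2 and R3 or 30 of the 3 colonies. No 2 libraries of a group agreed within sampling noise (lowest chi-square per degree of freedom 41.1 among 100 pairs). The fits were tested on simulated data. P-values for R42 alone measure the spread between bees of 1 colony. Those for R2 and R3 and for the colony difference measure the spread between bees within colonies, and not that between colonies.

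The members and gene lists were chosen with earlier results of these data known. Named are the 15 genes of smallest P in each direction among those called, the 6 genes the study lists, Kr-h1, Usp and Vg of its RT-qPCR genes (InR-1 was paired with no gene), in each list the genes of smallest P and highest CPM, the 5 genes in each direction for the colony difference and the 3 for the tissue difference. Added after values were seen were the 12 genes of smallest P without the 3 bees, the other genes given as examples, the long-span genes and the list of receptors, channels and synaptic proteins. Lists matched symbols or descriptions. The lists were trimmed of 5 wrong matches and Delta was added. No marker of midgut or trachea matched.

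Alternatives were size factors of DESeq2, upper-quartile factors, DESeq2 1.42.0, limma-voom (limma 3.58.1) with sample quality weights, the newer quasi-likelihood method, robust estimation, the filter left off or set at 10 counts per library, a spread shared by 3 colonies, the bee number as a block, other viral limits, 2 surrogate variables of sva 3.50.0, loess offsets on span, each colony alone, and each bee left out. Leaving out bees 14, 18 and 23 and the neuron and glia covariate were added after seeing the data.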

Additional observations from a re-analysis of the deposited data

Results flagged for a closer look

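In 3 of 76 named genes, 1 antag-missense library lay far from the other 9 by Dixon's test. Chance flags about 1 gene in 20. The test sets the gap to the next library against the full range, so libraries that are high together hide each other. It therefore cannot flag a rise shared by the 3 bees that stood apart. The count does not show whether outlying libraries were rare. The limit used was that for 10 libraries, the size of the antag-missense group, so the count does not cover antag-305 bees. The fatty acid elongase LOC409638 was at 4465 CPM in bee 20, with the next bee at 2027 CPM. Rpl39, a ribosomal protein, was at 1882 CPM in bee 23, 1 of the 3 bees that stood apart, with the next at 791 CPM. LOC727578 was at 190 CPM in bee 24, with the next at 135 CPM. None of the 3 genes was called between treatments.

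The effect of antag-305 in R42 differed from its mean effect in R2 and R3, by the test of the difference in edgeR, in 17 of 27 named genes, where 17% of all genes tested passed. Part of the 27 were named for their small P in this test or in R42, so their count is a description. The effect was higher in R42 for LOC107966102 (2.03 on the log2 scale), LOC107965825 (1.67), LOC413590 (1.64), LOC551724 (1.42), LOC107966117 (1.00) and LOC411071 (0.84). All 6 also passed without antag-missense bees 14, 18 and 23.

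The effect was lower in R42 for LOC410370 (-2.37), E75 (-2.39), GluCl (-1.47), LOC410423 (-1.02) and LOC408792 (-0.51), which passed without the 3 bees as well. LOC409692 (-5.18), LOC100577283 (-4.83), LOC102654175 (-1.25), LOC102654520 (-1.15), LOC726393 (-2.13) and LOC725217 (-2.05) passed with all libraries and did not pass without them, where their differences were -2.40, -2.06, -0.88, -1.32, -2.22 and -2.21, with edgeR FDR values of 0.421, 0.509, 0.468, 0.145, 0.0762 and 0.071.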

How the results depend on the processing

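Against 100 genes higher and 579 lower in R42, alternatives gave, as higher and lower, 188 and 819 (DESeq2), 49 and 84 (limma-voom with quality weights), 207 and 1587 (no filter), 52 and 488 (at least 10 counts in every library), 421 and 926 (spread shared by 3 colonies), 152 and 591 (high-virus library included) and 179 and 202 (2 surrogate variables). Leaving out each bee in turn gave 35 to 188 higher and 365 to 715 lower, with 35 and 365 without antag-missense bee 18, 40 and 377 without bee 14, 49 higher without bee 23, and 188 higher without antag-305 bee 23. Without bees 14, 18 and 23 it was 0 and 1, and with the covariate 1 and 1. Robust estimation, the newer method, both other scalings and length offsets stayed within 1.5 times of the main counts, and a viral limit of 0.05% changed nothing. Leaving out the 3 bees ended 44 of the calls of the 76 named genes and the covariate 43. The cause was not tested.

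With the bee number as a replicate block, 0 genes were higher and 0 lower in R42 (652 and 798 at an unadjusted P under 0.05 by edgeR), over 9 pairs. The numbers share no stated source. Correlations of same-numbered bees ran from -0.14 to 0.605, 5 of 9 were above 0.1, and 1 antag-305 bee correlated best with its own number. For the colony difference the block left 12 and 9 genes. The tissue comparison without its block called 31 higher and 495 lower.

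In R2 and R3, DESeq2 called 82 higher and 66 lower, R2 alone 0 and 0 (532 and 313 at an unadjusted P under 0.05 by edgeR), and R3 alone 2 and 2. For the colony difference, R2 alone as the comparator gave 186 and 663, at least 10 counts 248 higher, and leaving out each R42 bee 298 to 631 higher and 730 to 1157 lower (298 higher without antag-missense bee 23, 299 without bee 14). Without the 3 bees it gave 22 and 17.

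Signs turned for 9 named genes, none of them called in either setting. Of these, LOC413071 (-1.12, FDR = 0.0808) and Usp (-0.74, FDR = 0.207) were well below 0 with 21 libraries, and the other 7 lay between -0.17 and 0.17. With 2 surrogate variables Kr-h1 fell to -0.06, Jhe to -0.37 and LOC551903 to -0.04. Length offsets gave Usp 0.02, LOC413071 0.37, PGRP-S3 -0.07 and LOC551903 -0.07. Without the 3 bees Usp was 0.00, Jhe -0.15, LOC413071 0.03, CYTB -0.01, LOC551903 -0.09 and LOC102654964 0.05, and with the covariate Usp 0.17, LOC413071 0.19, PGRP-S3 -0.06, CYTB -0.04, LOC551903 -0.10 and LOC102654964 0.19. Limma-voom gave LOC413071 0.01, PGRP-S3 -0.10 and LOC551903 -0.12, and at least 10 counts PGRP-S3 -0.04, CYTB 0.00 and LOC551903 -0.07. Upper-quartile factors gave PGRP-S3 0.00 and LOC551903 -0.03, size factors and DESeq2 LOC551903 -0.02, the high-virus library PGRP-S3 -0.01 and LOC551903 -0.01, and the block LOC551411 0.02. Leaving out 1 bee gave Jhe -0.05 to 0.30, PGRP-S3 -0.14 to 0.16, CYTB -0.04 to 0.12, LOC551903 -0.11 to 0.08 and LOC551411 -0.14 to 0.04.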
